A study of Anoectochilus roxburghii with 9 samples.

Results

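The subject is a set of 40 assembled genes of Anoectochilus roxburghii, a medicinal jewel orchid, that were higher in leaves with an ArPHR2 construct and stayed near the control in leaves with an ArPHR4 construct. They are 40 of 85512 genes in the deposited table. The 9 messenger RNA libraries came from leaves with a genotype labelled WT, taken at day 3 of a transient overexpression treatment. An empty vector group (EV), an ArPHR2 group and an ArPHR4 group have 3 libraries each, so all groups share the treatment procedure, and every leaf kept its own PHR genes. The deposited name sheet has YFP in every construct name, the control name PHB-YFP included. The labels give neither the promoter, the way of delivery nor the age of the plants. Nor do they tell if same-group libraries are different plants, so the spread reported here may be technical.

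PHR proteins are MYB-type transcription factors. In Arabidopsis and rice they bind short elements in the promoters of phosphate starvation genes and switch on phosphate transporters, acid phosphatases and enzymes of membrane lipid exchange. SPX proteins bind PHR factors and hold them inactive while phosphate is plentiful. Plants carry several PHR genes, and comparing ArPHR2 with ArPHR4 asks which leaf transcripts follow one factor and which follow the other.

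The members were chosen on measured values. Counts were scaled to CPM, the count per 1000000 counts of the library, and the 3 libraries of a group were averaged. A member had at least 1 and under 1000 CPM in EV and at least 5 CPM in ArPHR2. Its ArPHR2/EV and ArPHR2/ArPHR4 ratios were at least 1.8, and its ArPHR4/EV ratio lay in a window from 0.8 to the inverse of 0.8. All 3 comparisons between the groups were thus used in the choice, and the ratios below describe the members without testing them. The assembly IDs are paired with no gene name, function, sequence or position in the sources used here. No role is given to any member for that reason, the leaf tissue was not checked against marker genes, and the levels of the introduced factors were not analysed here.

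Library totals ranged from 16032716 to 17244083 counts. On the third principal component of log2 CPM the ArPHR4 library numbered 3 stood at -50.6, on the other side of 0 from its group mates. The numbers of members and of calls and the median shifts of implied length were also computed without it. Unless said otherwise, the other ArPHR4 values include it. In bulk leaf RNA, more cells of a type and more RNA per cell cannot be told apart.

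Few of the genes raised by ArPHR2 met the limit on ArPHR4. Within the level limits, 1145 genes had an ArPHR2/EV ratio of at least 1.8. Of these, 61 had an ArPHR4/EV ratio inside the window (5.33%), and 40 were also at least 1.8-fold above ArPHR4. With the constructs exchanged, the same steps gave 1844 genes, then 201 (10.9%), then 119. Both sets are measured against the same EV libraries, and the difference in their sizes was not tested. The exchanged set was the larger under each of 25 other settings of the rule, libraries or scaling. Its median ArPHR4/EV ratio was 2.37, beside a median ArPHR2/EV ratio of 2.36 for the members.

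**Figure D1:**
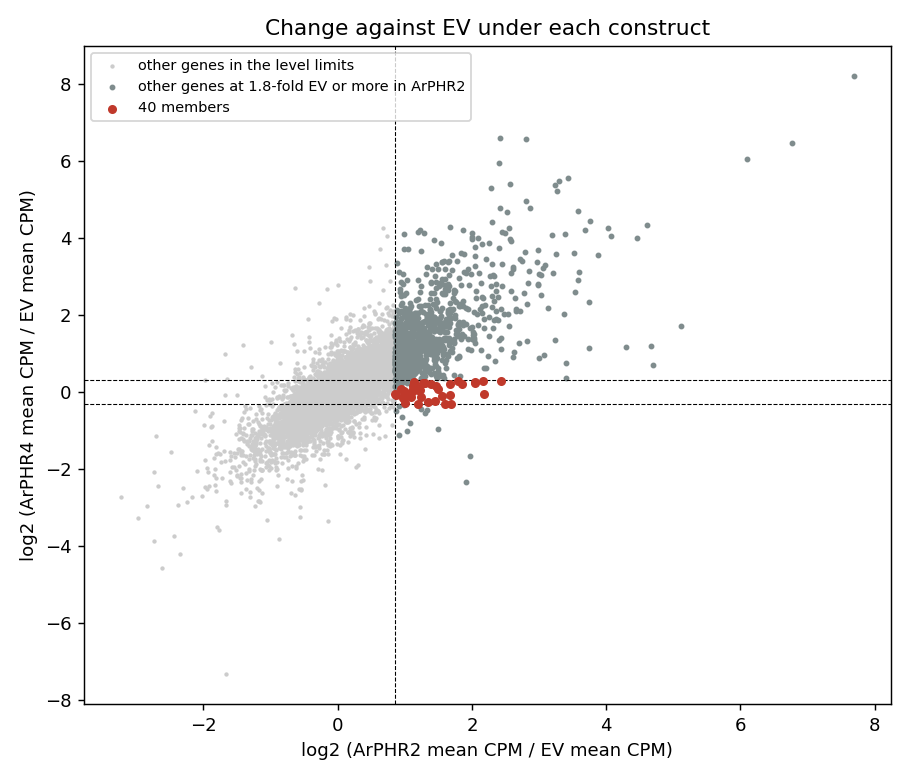
Each point is a gene with 1 to 1000 CPM in EV and at least 5 CPM in ArPHR2. The x axis is the log2 ratio of ArPHR2 to EV mean CPM, the y axis that of ArPHR4 to EV, and dashed lines mark the limits of the rule. The 40 members form a thin band at the right, between an ArPHR4/EV ratio of 0.801 and 1.23. Both axes share the EV libraries.

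The increase in ArPHR2 was moderate for most members. The ArPHR2/EV ratio ran from 1.81 to 5.40, with quartiles of 2.14 and 3.08. It was at least 2 in 33 members, at least 3 in 11 and at least 4 in 5. The ArPHR2/ArPHR4 ratio ran from 1.81 to 4.70 with a median of 2.31. Over all 27275 genes that passed edgeR's filter on low counts, which all 40 members passed, the median ArPHR2/EV ratio was 1.06 and the median ArPHR4/EV ratio 1.08.

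Most members gave few reads. In EV 28 of them were under 10 CPM, 10 between 10 and 100 CPM, and 2 above 100 CPM. Summed over the 40 members, the libraries held 769, 759 and 797 CPM in EV, 1977, 2041 and 2017 CPM in ArPHR2, and 744, 759 and 787 CPM in ArPHR4. The 3 ArPHR2 libraries stood together at about the same height, and the EV and ArPHR4 libraries overlapped. A pair of members made up 50.7% of the ArPHR2 sum. Without that pair, the sum was 408 ± 20.5 CPM (SD, n = 3) in EV, 991 ± 48.7 CPM in ArPHR2 and 414 ± 16.5 CPM in ArPHR4.

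**Figure D2:**
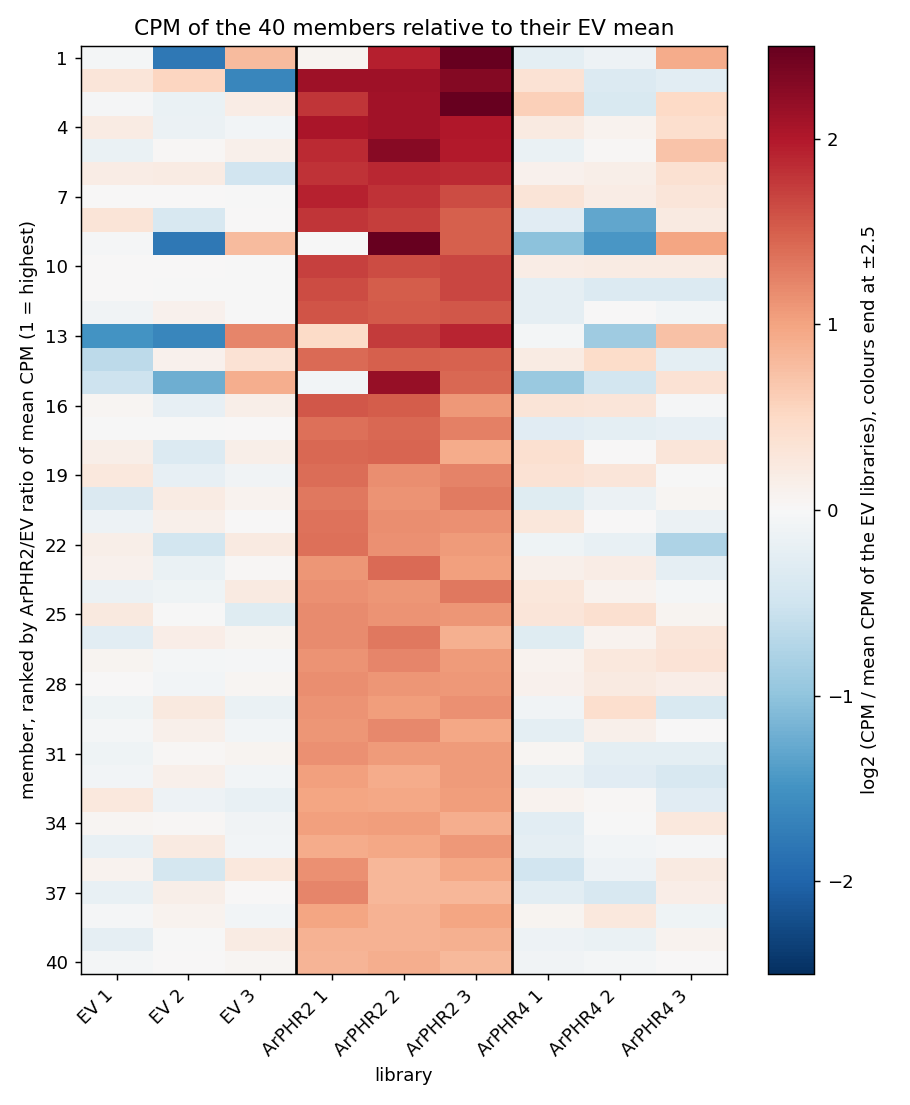
Rows are the 40 members from the highest to the lowest ArPHR2/EV ratio, and columns are the 9 libraries. Colour is the log2 of CPM over the mean EV CPM of that gene. The ArPHR2 columns are red in nearly every row, while 4 rows near the top (ranks 1, 9, 13 and 15) vary strongly from library to library within each group.

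In 36 of the 40 members every ArPHR2 library lay above every EV library, and in the same number every ArPHR2 library lay above every ArPHR4 library. Such separation occurred upward in 30.3% of the tested genes for ArPHR2 over EV and in 18.9% for ArPHR2 over ArPHR4, but the rule selects for it. The same 4 members overlapped both other groups. Between EV and ArPHR4 the libraries overlapped in 33 members. ArPHR4 lay wholly above EV in 4 and wholly below in 3. The window on the ArPHR4/EV ratio favours such overlap. The shares over all tested genes were not computed for this pair, so nothing is read from these counts.

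TRINITY_DN3313_c0_g1 had the most reads of the set. Its CPM was 236, 235 and 236 in the EV libraries, 609, 633 and 562 in ArPHR2, and 193, 199 and 203 in ArPHR4. The ArPHR2 libraries stood far above all others, and the ArPHR4 libraries lay somewhat below EV without overlap. The log2 fold change was 1.28 ± 0.04 (SE) for ArPHR2 against EV and -0.35 ± 0.041 for ArPHR4 against EV. The member next to it in CPM had 132, 132 and 130.2 CPM in EV, 429, 409 and 419.6 in ArPHR2, and 149, 151 and 151 in ArPHR4. Here too ArPHR2 stood apart, while ArPHR4 lay slightly above EV, again without overlap.

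TRINITY_DN6444_c0_g1 had the highest ArPHR2/ArPHR4 ratio, 4.70, and the lowest ArPHR2 CPM of the set. It had 23, 27 and 6 counts in the EV libraries, 85, 83 and 92 in ArPHR2, and 24, 15 and 15 in ArPHR4. The ArPHR2 libraries were alike and clear of the others, and the EV library numbered 3 was the lowest. Its log2 difference between ArPHR4 and ArPHR2 was -2.26 ± 0.331 (SE). TRINITY_DN6420_c0_g1, with a ratio of 4.01, had 36, 22 and 29 counts in EV, 105, 99 and 82 in ArPHR2, and 24, 12 and 33 in ArPHR4. Its groups EV and ArPHR4 overlapped, and its ArPHR4/EV ratio of 0.801 was the member value closest to the lower edge of the window. On the deposited FPKM values, which scale counts to transcript length and depth, that ratio was 1.47, above the window, and the ArPHR2/ArPHR4 ratio was 2.14. With limma on log2(FPKM + 1) and log2(FPKM + 0.1) its call between ArPHR4 and ArPHR2 was lost, at adjusted p = 0.0521 and 0.0575.

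**Figure D3:**
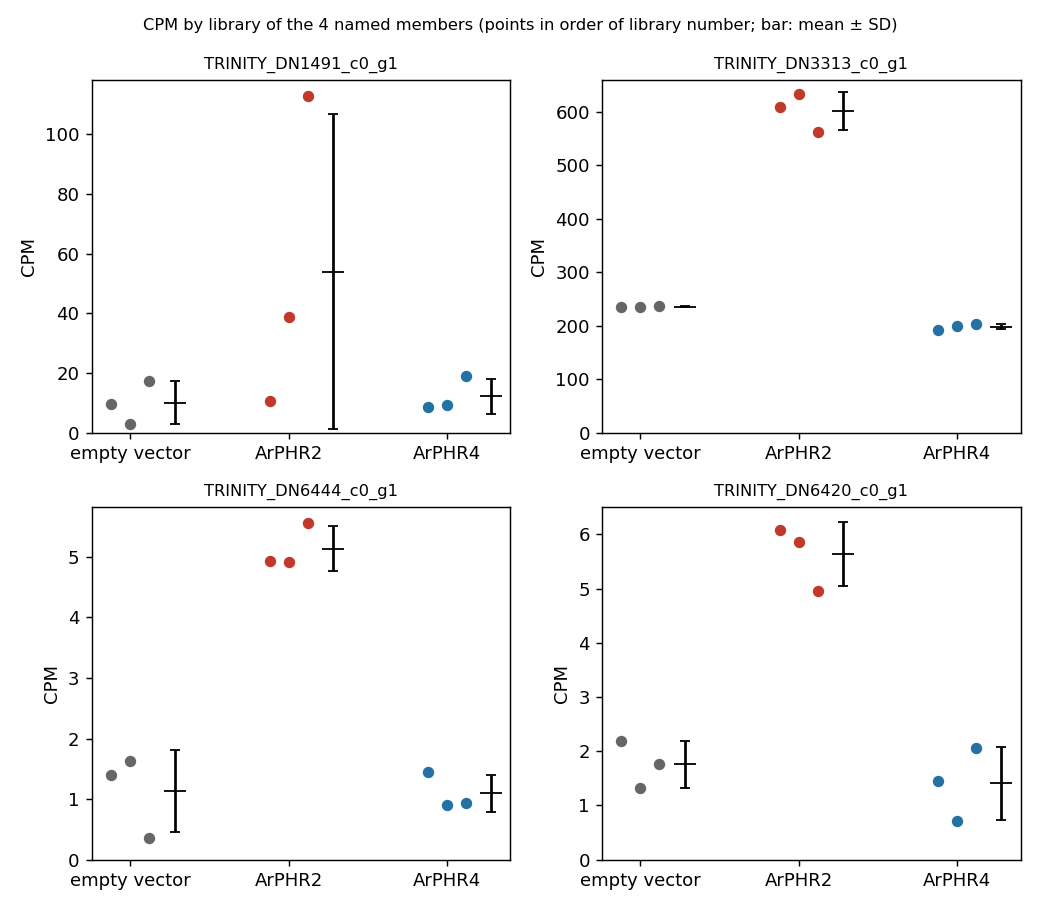
CPM of the 4 members given by ID, 1 panel each, with a point per library in order of its number and a bar for the mean ± SD of the group (n = 3). In 3 panels the ArPHR2 points sit clear of the rest. In TRINITY_DN1491_c0_g1 they run from 10.6 to 113 CPM and overlap the other groups.

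The member with the highest ArPHR2/EV ratio, TRINITY_DN1491_c0_g1, rested mainly on 1 library. Its CPM was 9.70, 2.90 and 17.4 in EV, 10.6, 38.7 and 113 in ArPHR2, and 8.44, 9.13 and 19.0 in ArPHR4. The ArPHR2 library numbered 1 fell within the EV range, and the one numbered 3 was the highest by far. The log2 fold change of ArPHR2 against EV was 2.37 ± 0.454 (SE). It was 1.22 without the ArPHR2 library numbered 3 and 3.02 without the EV library numbered 3. On FPKM the ArPHR4/EV ratio of this member was 1.97, above the window. With limma on log2(FPKM + 1) and log2(FPKM + 0.1) its call between ArPHR2 and EV was lost, at adjusted p = 0.0755 and 0.0783.

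The other 3 overlapping members varied in a like manner. One had 6.73, 1.99 and 12.01 CPM in EV, 6.84, 40.2 and 19.4 in ArPHR2, and 3.38, 2.51 and 13.7 in ArPHR4. In all 4 members the EV library numbered 3 was the highest of its group, the ArPHR2 library numbered 1 the lowest of its group and the ArPHR4 library numbered 3 the highest of its group. This order occurred in 2 of the other 36 members and in 3.99% of the 13943 genes within the level limits. The 4 members were singled out after their values were seen, and what sets these libraries apart was not tested. Their coefficient of variation within a group was 44.6% to 115%. In the 36 other members its median was 12.2% in EV, 5.96% in ArPHR2 and 13.1% in ArPHR4.

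All 40 members were called higher in ArPHR2 than in EV by edgeR's quasi-likelihood test at an adjusted p under 0.05, where 22.6% of all tested genes were, and all 40 lower in ArPHR4 than in ArPHR2, where 16.2% were. The members were chosen on these contrasts, so nothing is read from those counts. A class defined by calls alone held 830 genes, 3.04% of those tested: higher in ArPHR2 than in EV, not called in ArPHR4 against EV, and lower in ArPHR4 than in ArPHR2. It included 35 of the members, and 402 of its genes had an ArPHR2/EV ratio of at least 1.8.

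Near EV in ArPHR4 does not mean equal to EV. In that comparison 1 member was called higher (26.1% of all tested genes were) and 4 lower (25.9% were). The window on this ratio keeps such calls rare, so nothing is read from how few there were. The called increase was that of the member next to the highest in CPM, with an ArPHR4/EV ratio of 1.15. It was lost when any 1 of the 3 ArPHR4 or 3 EV libraries was left out; without the EV library numbered 3 another member was called higher instead. The decreases included TRINITY_DN3313_c0_g1, at a ratio of 0.842, and a member at 43.1 ± 0.459 CPM in EV, 131 ± 6.90 CPM in ArPHR2 and 34.9 ± 1.61 CPM in ArPHR4 (mean ± SD of 3 libraries). The other decreases had ratios of 0.822 and 0.972. All these ratios use library totals, while the calls come from the edgeR fit with TMM scaling of library sizes. In that fit the log2 fold change was 0.097 for the called increase and -0.14 for the decrease at 0.972.

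For most members the files could not fix the ArPHR4 level to within the window. The 95% interval of the ArPHR4/EV ratio from the edgeR fit lay wholly inside the window in 6 members. It reached past the upper edge in 18 and past the lower edge in 26, and it reached 1.8 or more in 2. The highest upper bound was 2.32, for TRINITY_DN1491_c0_g1. The window was set on library totals, while the fit used TMM scaling, which moves ArPHR4/EV ratios by about -0.098 on the log2 scale. The counts inside the window and past each edge depend on that shift. Since the members were picked for ratios near 1, these intervals are centred closer to 1 than those of genes not picked in this way.

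The side of EV on which ArPHR4 fell depended on the scaling. With library totals, 22 members were above EV and 18 below, with a median ratio of 1.02. With TMM or DESeq2 scaling 15 were above and 25 below, with medians of 0.953 and 0.947, and with upper-quartile scaling 14 and 26, with a median of 0.914. These scalings moved ArPHR4/EV ratios by about -0.098, -0.11 and -0.16 on the log2 scale, and ArPHR2/EV ratios by about -0.068, -0.071 and -0.08. Each library had its own scale factor, so the exact shift varied by gene. The lowest ArPHR2/EV ratio among the members was still 1.71 with upper-quartile scaling.

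The genes at the edges of the rule were close to those just outside. The lowest ArPHR2/EV ratio inside was 1.81 and the highest outside, among genes that met every other limit, was 1.79. For ArPHR2/ArPHR4 these were 1.81 and 1.797. The highest ArPHR4/EV ratio inside was 1.23 and the next outside 1.27, and the lowest inside was 0.801 against 0.795 outside. Among genes that missed a single limit on a ratio, 47 missed the upper edge of the window, 16 its lower edge, 12 the ArPHR2/EV limit and 21 the ArPHR2/ArPHR4 limit.

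The choice was repeated without the libraries of 1 number, and the ratios were read in the 3 libraries left out. The numbers are only names here and pair nothing. Chosen without the libraries numbered 1, 35 genes had a median ArPHR2/EV ratio of 2.45 in those libraries, and 34 of them were above EV. Without those numbered 2 it was 2.24 over 42 genes, all of them above EV. Without those numbered 3 it was 2.12 over 43 genes, again all above EV. The ratio reached 1.8 for 30 of 35, 33 of 42 and 30 of 43 genes. The median over the 13943 genes within the level limits was 1.03 to 1.05 in the same libraries. The shares of those genes above EV or at 1.8-fold were not computed, so nothing is read from these counts alone.

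In the same left-out libraries the median ArPHR4/EV ratio was 1.11, 1.13 and 0.982. It fell inside the window for 16 of 35, 23 of 42 and 24 of 43 genes. It was at least 1.8 for 8, 3 and 4 of them. All 3 ratio limits were met together by 14, 16 and 16 genes. The shares of all genes within the level limits were not computed here, so nothing is read from these counts. The values come from 1 library per group and have no replicate check.

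Within the assembly, no member shared a component with another member. Trinity gives the IDs of 1 component a common stem and a gene number at the end, and reads can be shared among them. In all, 24 members were the only ID of their component and 16 had sibling IDs, 24 siblings in total. Of these siblings, 17 had a mean of at least 1 CPM over the groups. Their median ratio to EV was 1.48 in ArPHR2 and 1.68 in ArPHR4, but with a minimum of 5 CPM, which left 15 siblings, the ArPHR4 median was 0.881 and the ArPHR2 median still 1.48. At 1.8-fold or more there were 5 in ArPHR2 and 6 in ArPHR4. Most of those 5, and several of those 6, belonged to a single component with 6 IDs. Not 1 of the 17 had an ArPHR2/EV ratio of at least 1.8 together with an ArPHR4/EV ratio inside the window. This combination occurred in only 61 of the 13943 genes within the level limits, so its absence among 17 siblings is not read as a result.

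Summing counts over the component took most members with siblings outside the rule. Of the 16, 5 component sums still met the rule and 11 did not. The sum kept an ArPHR2/EV ratio of at least 1.8 in 10 and an ArPHR4/EV ratio inside the window in 6. Some of the 11 only crossed the lower edge of the window. An example had component ratios of 2.22 in ArPHR2 and 0.766 in ArPHR4, and its member held 95.6% of the EV reads. Across the 16, the share of the component's EV reads on the member ID was as low as 1.86%. The share was higher in ArPHR2 than in EV for 14 of the 16. The members, unlike their siblings, were chosen for a rise in ArPHR2, which favours a higher share, so nothing is read from that count. In the largest such component, with 6 IDs, the member held 5.19% of the EV reads. The component rose from 133 CPM in EV to 349 in ArPHR2 and 299.5 in ArPHR4. For the member with 3 IDs and the highest CPM among those with siblings, the component ratios were 1.65 in ArPHR2 and 0.789 in ArPHR4, beside 2.17 and 1.12 for the member itself.

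**Figure D4:**
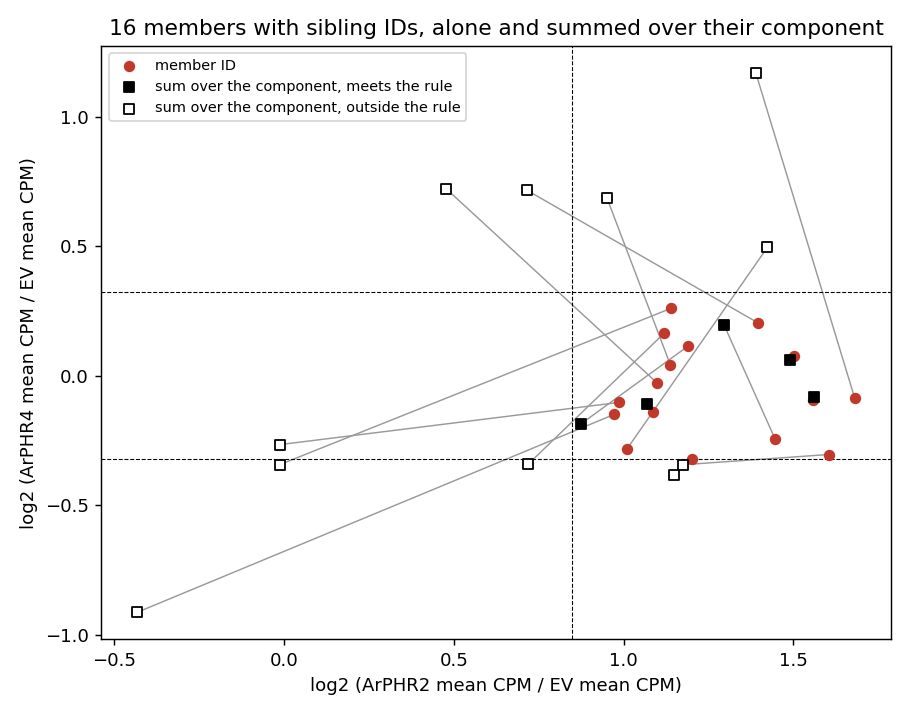
Log2 ratios of mean CPM to EV in ArPHR2 (x) and ArPHR4 (y) for the 16 members with sibling IDs. Red points are the member IDs, squares are the sums over their components, filled where the sum meets the rule (5) and open where it is outside it (11), and lines join each member to its sum. Some open squares lie just outside the dashed limits, and others lie well beyond them.

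The deposited FPKM values (fragments scaled to transcript length and to depth) gave the same direction for ArPHR2 against EV in every member, with a slightly lower median ratio. Members can be ranked by level only on this scale. In ArPHR2 they ranged from 3.11 to 668 FPKM with a median of 22.8, beside medians of 9.35 in EV and 9.57 in ArPHR4. The ArPHR2/EV ratio of FPKM was above 1 in all 40 members, with a range of 1.44 to 4.93 and a median of 2.25. It was at least 1.8 in 34. The ArPHR4/EV ratio of FPKM ran from 0.650 to 1.97 and lay inside the window in 29. All 3 ratio limits were met on FPKM by 22 of the members.

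Count and FPKM together imply a length for each gene in each library, taking the column total as the depth. It is an effective length, so a change in the mix of long and short transcripts alters it. The members were short by this measure, with a median of 742 bases against 1215 over the 13943 genes within the level limits. Under 300 bases were 22.5% of the members and 4.50% of those genes. This difference was not tested. Short lengths make FPKM uncertain, and the member highest in FPKM had an implied length of 38.8 bases.

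TRINITY_DN3313_c0_g1 had the largest difference in implied length between ArPHR2 and EV among the 27 members with at least 50 counts in every library. It was 1376, 1340 and 1391 bases in the EV libraries, 2407, 2492 and 2390 in ArPHR2, and 1825, 1760 and 1743 in ArPHR4. The 3 groups were fully separated, ArPHR2 highest. Its mean FPKM was 172 ± 3.08 (SD, n = 3) in EV, 247.5 ± 10.6 in ArPHR2 and 112 ± 5.65 in ArPHR4. On FPKM the ArPHR2/EV ratio was 1.44, where the CPM gave 2.55, and the ArPHR4/EV ratio was 0.650. Both FPKM ratios lay outside the limits of the rule. Whether the difference in length reflects other transcripts of the gene or a reassignment of reads was not tested. The member next to it in CPM had smaller differences in length, with 1189, 1260 and 1145 bases in EV, ArPHR2 and ArPHR4 and no overlap between the groups, and its FPKM went from 110.4 ± 1.14 to 333 ± 6.47 and 131 ± 0.674.

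Over the 27 members, the median log2 shift of implied length was 0.069 in ArPHR2 and 0.029 in ArPHR4 against EV. Over 11468 well-covered genes, whose libraries all reached 100 counts and 5 FPKM, the medians were 0.027 and 0.0097. The shift was above those medians in 20 of the 27 members in ArPHR2 and in 18 in ArPHR4. A shift of at least 1.5-fold occurred in 2 of the 27 members in ArPHR2 and in 0 in ArPHR4. One of the 2 was TRINITY_DN3313_c0_g1. The other had 836, 808 and 383 bases in the EV libraries and 931, 994 and 979 in ArPHR2. Its shift rested mainly on the EV library numbered 3. Of the 15 members within the stricter limits of the well-covered genes, 1 shifted by at least 1.5-fold in ArPHR2 and 0 in ArPHR4. The shares of the well-covered genes were 0.698% and 1.29%.

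**Figure D5:**
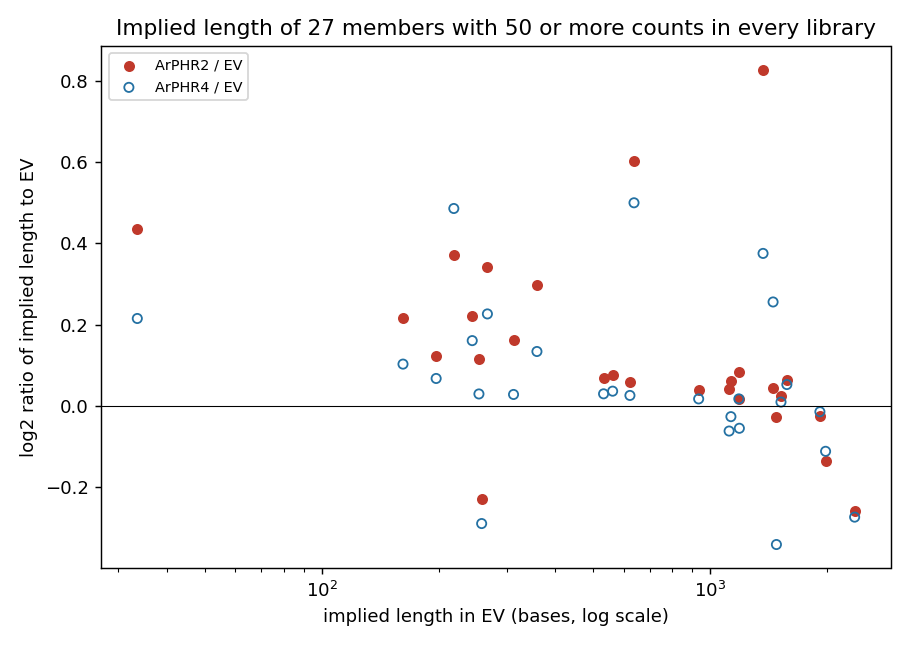
Log2 ratio of implied length to EV (y) against the implied length in EV in bases (x, log scale) for 27 members. Filled red points are ArPHR2 and open blue circles ArPHR4, as group means. Most points lie between -0.3 and 0.5. TRINITY_DN3313_c0_g1 has the highest ArPHR2 point, at 0.83, and another member follows at 0.60. The ArPHR4 point of TRINITY_DN3313_c0_g1, at 0.38, lies below those of other members at 0.50 and 0.49.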

How the data were processed

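The authors deposited 1 table with whole-number counts and FPKM per assembled gene and library, per the file headers. The authors' FPKM is scaled to transcript length and depth, per the file headers. The IDs have Trinity's form. Aligner, counting tool and strand setting: not given in the sources used here. Per the labels' protocols, a SMARTER mRNA-Seq kit was used. Column names were matched to sample titles, and no per-library column was left out.

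The selection rule was applied with pandas 2.3.3. All 9 libraries were fitted with edgeR 4.0.16 in R 4.3.3 (TMM, expression filter by group, quasi-likelihood, 3 group means), with Benjamini-Hochberg adjustment over 27275 genes and calls at an adjusted p under 0.05. Standard errors are the log2 fold change over the square root of F. The fit was checked on simulated counts. Alternatives used DESeq2 1.42.0 and limma 3.58.1. IDs printed were the members with the highest ArPHR2/EV ratio and the highest ArPHR2 CPM, and the 2 with the lowest ArPHR4/ArPHR2 ratio among the rest. Other members were described by rank, or, like the 4 overlapping ones, chosen after their values were seen. Members, rule and tests were chosen with earlier results of these data known. Pathway lists need gene names, and none was applied.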

Additional observations from a re-analysis of the deposited data

How the results depend on the processing

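The number of members was 40, with 35 to 44 when 1 library or the libraries of 1 number were left out (43 without the ArPHR4 library numbered 3, sharing 31 with the 40). It was 39, 49 and 42 with TMM, upper-quartile and DESeq2 scaling, which shared 32 each, and 32 were kept under all of them. Only 17 were kept without each of the 9 libraries in turn. The number became 171 with FPKM in place of CPM (19 shared), 110 and 21 with ratio limits of 1.5 and 2.2, 18 and 62 with windows of 1.1 and 1.5, and 1208 without the lower level limits. Summed components, added after seeing the data, gave 30. The exchanged set of 119 became 342, 311, 62, 61, 198 and 1354 under the same changes of unit, ratio limit, window and level, and 114 to 144 without libraries.

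Members called higher in ArPHR2 than in EV numbered 35 to 40, and members lower in ArPHR4 than in ArPHR2 33 to 40, over all alternatives of both fits, leaving out libraries included. Members called lower in ArPHR4 than in EV numbered 3 to 5. The 1 call higher in ArPHR4 than in EV became 0 with DESeq2, upper-quartile scaling, no filter or the replicate block, 3 and 2 with limma on log2(FPKM + 0.1) and log2(FPKM + 1), and 0 to 1 without single libraries, where the call without the EV library numbered 3 was of another member. The replicate block left 40, 40 and 3 calls in the other counts. Same-numbered libraries deviated together with r of -0.0029 to 0.036, beside -0.051 to 0.030 for libraries of different numbers. Of the libraries, 5 of 9 correlated best with their own number. The main fit did not use the numbers as pairs, and the replicate block gives the alternative.

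In the left-out libraries, the median ArPHR2/EV ratio was 1.98, 1.66 and 1.47 with FPKM. The ArPHR4/EV ratio was 0.997 for number 1 and 1.09 for number 3 with TMM, and 1.04 for number 2 and 1.12 for number 3 with FPKM. The cause of these differences was not tested. The median shift of implied length stayed between 0.068 and 0.083 in ArPHR2 and between 0.018 and 0.044 in ArPHR4. Low counts limit the members under 10 CPM, 3 of which had under 20 counts in some library.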

Other observations

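In the component with 6 IDs, another ID showed a single high library. It had 0.93, 7.87 and 65.8 CPM in the ArPHR2 libraries, 1.82, 1.87 and 3.40 CPM in EV and 3.26, 5.49 and 3.31 CPM in ArPHR4. Its ArPHR2/EV ratio of means was 10.5 and its ArPHR4/EV ratio 1.70, outside the window. This ID was chosen after its values were seen.

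A sibling ID of another member, also chosen after its values were seen, was at 39.8 CPM in EV, 21.2 in ArPHR2 and 18.6 in ArPHR4. The member itself was at 6.80 ± 0.777 CPM (SD, n = 3) in EV, 13.4 ± 2.09 CPM in ArPHR2 and 6.14 ± 1.30 CPM in ArPHR4. The sum of that component went from 46.6 CPM in EV to 34.6 in ArPHR2 and 24.8 in ArPHR4.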
